A study of Mus musculus with 50 samples.

Results

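The 10 genes described here are targets of the transcription factor p53: Mdm2, Ccng1, Btg2, Bax, Bbc3, Pmaip1, Sesn1, Sesn2, Rrm2b and Trp53inp1. They were chosen by name as a set of p53 targets, with earlier results of these data known. All 10 were found among the 35750 genes of the deposited table. The measurements came from RNA sequencing of pools of mouse embryos that received Duxbl mRNA, mCherry mRNA or no injection, in a series on how the double homeobox protein DUXBL acts on the exit from totipotency. At the late 2-cell stage (late 2C), embryos with Duxbl mRNA had less Sesn2, Btg2, Bax and Pmaip1 RNA and more Rrm2b RNA than embryos with mCherry mRNA. None of the tested members passed the test at the 2 earlier stages, and Bbc3 was too low to be tested at the early 2-cell stage. Of all genes tested, 0.0193% passed at the late 1-cell, 0.42% at the early 2-cell and 55.7% at the late 2-cell stage.

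In unstressed cells p53 protein is kept low by MDM2, a ubiquitin ligase that is itself the product of a p53 target, so the pair forms a feedback loop. After DNA damage or other stress p53 accumulates and raises genes that halt the cell cycle, repair DNA, limit growth signalling or start apoptosis. Many of these genes also respond to other transcription factors, and in the mouse embryo the 2-cell stage is when most transcription of the embryo's own genome begins.

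All embryos were wild type, of the C57BL6/J strain, and came from females aged 3 to 12 weeks that had been superovulated with PMSG and then hCG. The Duxbl groups received 200 ng/µl of Duxbl-V5-2A-NLS-mCherry mRNA at the 1-cell stage, the mCherry groups received NLS-mCherry mRNA at the same concentration, and the uninjected groups received neither. Collection was at late 1C (28 to 30 h after hCG), early 2C (32 h) and late 2C (48 h). Each library was made from 5 embryos, so a value is the mean of a pool that can mix embryos with more and with less injected mRNA. There were 6 uninjected and 6 mCherry libraries at each stage, and 4, 5 and 5 Duxbl libraries from the earliest to the latest stage. The labels do not say that the tubes came from separate females, so the p-values measure the spread between tubes.

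The deposited values were taken to be scaled counts and not reads. Levels are given as CPM, these values brought to a common library size. They are relative to library size, so a higher value is a larger share of the RNA measured, and fewer cells of a kind cannot be told apart from less RNA per cell. Deposited totals ran from 22.5 to 27.0 M at late 1C, from 22.3 to 26.4 M at early 2C and from 12.04 to 22.5 M at late 2C. The late 2C totals also differed by group, at 18.8 to 22.5 M in Duxbl, 12.8 to 18.7 M in mCherry and 12.04 to 18.2 M in uninjected libraries, and the part of this in the results was not tested. Differences are log2 differences of CPM + 1 fitted with limma, which understate the change of genes at a few CPM. A gene was called at a Benjamini-Hochberg adjusted p under 0.05 over all genes tested. Where groups are said not to overlap, the share of all genes tested without overlap is not given. The lowest Duxbl library held 1343 CPM of Duxbl1 and the highest mCherry or uninjected library held 628 CPM, a value that joins injected and embryonic transcripts.

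A p53 binding site is made of a pair of copies of a 10-letter sequence, the p53 half-site, whose consensus reads the same on both strands. A RefSeq table of promoters (build GRCm38.p6, 250 bases before to 50 bases after a start) held windows for 7 of the 10 genes, and Pmaip1, Rrm2b and Trp53inp1 were not in it. The half-site consensus was found in 4 of the 10 windows of these 7 genes, against 2745 of 32851 windows, or 8.36%, in the whole table. The matches are printed to show the letters in these 4 windows, with the half-site in capitals and 15 bases on each side, 5′ to 3′ on the strand of the gene. A match describes letters and is not evidence of binding.
Bax, chr7:45467075-45467114, minus strand: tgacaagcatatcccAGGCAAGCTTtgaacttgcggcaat
Ccng1, chr11:40755447-40755486, minus strand: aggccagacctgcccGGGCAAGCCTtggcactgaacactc
Mdm2, chr10:117710920-117710959, minus strand: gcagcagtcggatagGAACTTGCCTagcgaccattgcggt
Sesn1, chr10:41887251-41887290, plus strand: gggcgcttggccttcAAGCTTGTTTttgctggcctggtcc

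The first base of the half-site lay 201 bases before the start in Bax, 185 in Ccng1, 186 in Mdm2 and 173 in the second of the windows of Sesn1. The window of Sesn2, the member with the largest difference between Duxbl and mCherry embryos, held no half-site. It is printed because its RNA set the extreme of the results, with the 50 bases from the start in capitals.
Sesn2, chr4:132510407-132510706, minus strand: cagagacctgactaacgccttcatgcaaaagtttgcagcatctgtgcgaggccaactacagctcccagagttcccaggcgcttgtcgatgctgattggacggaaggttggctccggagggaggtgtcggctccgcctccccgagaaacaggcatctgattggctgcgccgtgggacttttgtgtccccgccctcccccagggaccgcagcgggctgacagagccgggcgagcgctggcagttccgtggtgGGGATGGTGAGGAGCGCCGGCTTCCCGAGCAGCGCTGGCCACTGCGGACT

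Normal development, shown by the uninjected embryos, is followed first from late 1C to early 2C. A missed threshold there does not show that a member was level. Ccng1, for example, was not called, with a change of 0.47 and a 95% interval of -0.21 to 1.15. Of 10 tested members only Sesn1 was called between these stages, where 2.89% of all genes tested were called, 1.12% higher and 1.77% lower. Sesn1, which encodes a stress-induced protein that restrains the growth kinase complex mTORC1, rose by 1.62 (SE 0.32, limma adjusted p 0.000756). Its uninjected libraries ran from 0.13 to 1.58 CPM with a median of 0.948 at late 1C and from 3.22 to 10.3 CPM with a median of 3.44 at early 2C, so the groups did not overlap, and with a pseudocount of 0.1 CPM the rise was 2.53. Btg2 did not overlap between the stages either (54.5 to 64.6 CPM against 19.8 to 51.2 CPM), but its difference of -0.60 was not called (adjusted p 0.604).

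From early to late 2C, 6 of the 10 members rose in uninjected embryos, 2 fell and 2 were not called. The 6 include Bbc3, which entered the fit through groups where it is higher, so its selection for testing favoured a rise. Over all genes tested 57.1% were called, 30.8% higher and 26.3% lower, so many genes moved at this step. The median change of the members, with Bbc3 included, was 1.45, beside 0.03 for all genes tested.

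Sesn2, a second sestrin that also restrains mTORC1 and responds to amino acid shortage, had the largest rise among the members. Its level went from 1.498 to 9.28 CPM (median 2.18) at early 2C to 66.0 to 213.6 CPM (median 110.2) at late 2C, a change of 4.92 (SE 0.39, limma adjusted p 1.3e-15). Every late library was above every early one. Pmaip1, which encodes the pro-apoptotic BH3-only protein NOXA, went from 0.172 to 2.73 CPM (median 0.919) to 15.6 to 46.0 CPM (median 30.2) and rose by 3.93 (SE 0.40, adjusted p 3.21e-12), with no overlap. With a pseudocount of 0.1 CPM this rise was 4.88.

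Sesn1 rose again, by 2.43 (SE 0.32, limma adjusted p 3.55e-09), to 16.7 to 46.5 CPM at late 2C. Ccng1, which encodes cyclin G1, a p53 target that acts with MDM2 and the phosphatase PP2A, rose by 1.90 (SE 0.34, adjusted p 2.91e-06) from 11.4 to 28.5 CPM to 29.7 to 203 CPM. Btg2, an antiproliferative gene whose product binds the deadenylase that shortens mRNA tails, rose by 1.53 (SE 0.35, adjusted p 0.000162) to 66.5 to 179.6 CPM. These 3 genes also had no overlap between the stages, and the late Ccng1 libraries were widely spread around a median of 52.1 CPM.

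Bbc3 encodes the pro-apoptotic BH3-only protein PUMA. It was listed at 0 in 3 of 6 uninjected libraries at early 2C, where the highest held 0.22 CPM, and ran from 0.0985 to 3.41 CPM (median 2.43) at late 2C. Its fitted rise of 1.363 (SE 0.27, limma adjusted p 2.32e-05) became 3.29 with a pseudocount of 0.1 CPM, and the groups overlapped through 1 late library. Bbc3 was too low to be tested within early 2C. It entered the fit of all 9 groups through groups where it is higher, so its selection for testing favoured a rise.

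Rrm2b and Mdm2 fell over the same step. Rrm2b, which encodes the p53-inducible small subunit of ribonucleotide reductase that supplies deoxynucleotides outside S phase, went from 200.9 to 358 CPM (median 248.6) to 75.3 to 138.7 CPM (median 94.7). This was a fall by 1.38 (SE 0.16, limma adjusted p 1.02e-10) with no overlap. Mdm2 went from a mean of 214 to 166 CPM, and its fall by 0.39 (SE 0.16, adjusted p 0.0369) lay close to the threshold. It was lost without early 2C library 1, 5, 6 or 7, without late 2C library 3, 4 or 5, and under other scalings of the libraries, with values from -0.02 to -0.39. Bax (0.06, adjusted p 0.885) and Trp53inp1 (-0.23, adjusted p 0.301) were not called, and the sign of Trp53inp1 changed to 0.14 when libraries were scaled by their totals.

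**Figure D1:**
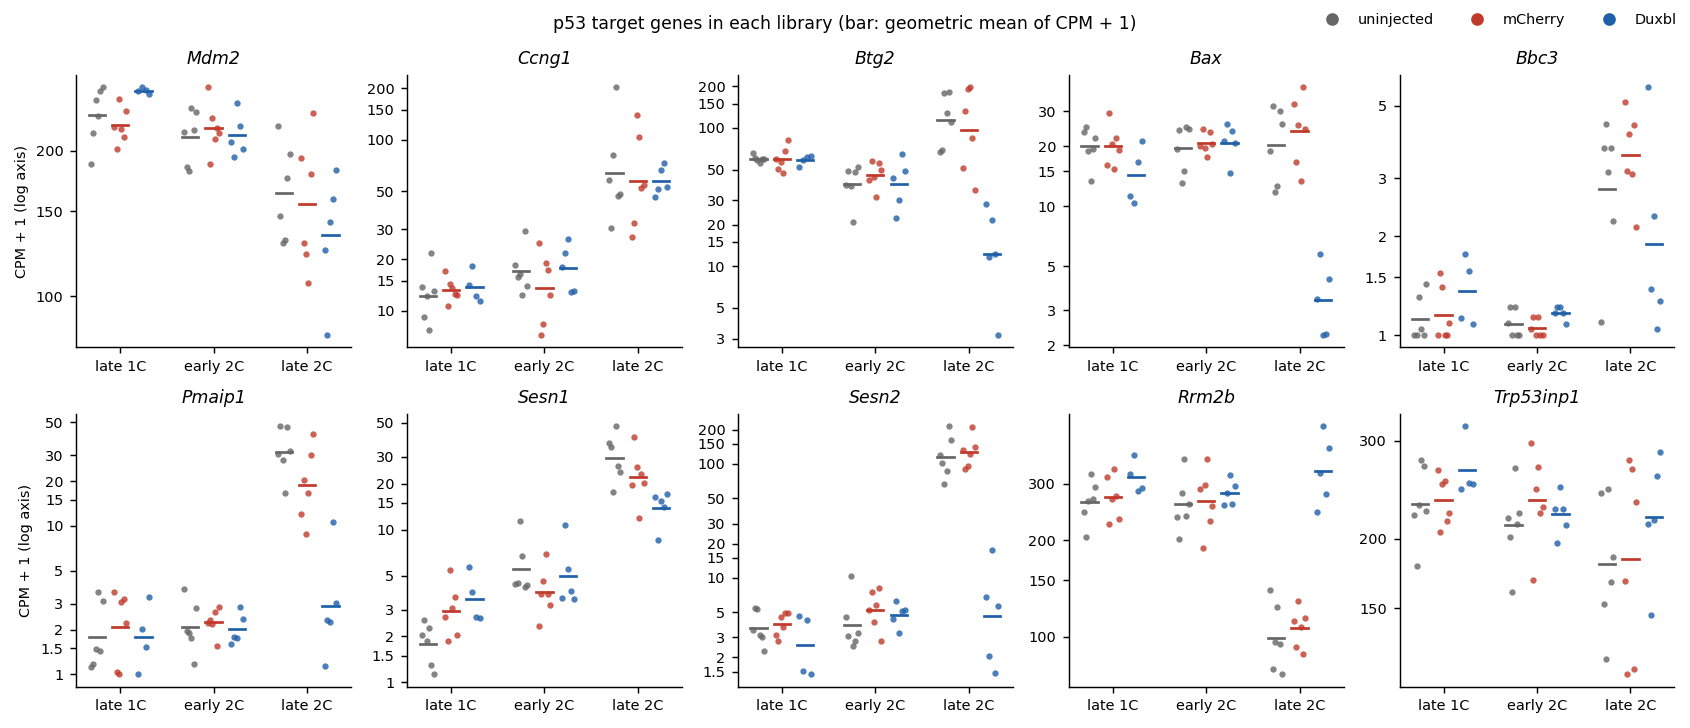
Level of each member in every library, as CPM + 1 on a log axis, by stage for uninjected, mCherry and Duxbl embryos; points are libraries and bars are geometric means of CPM + 1. Sesn2 stood at 66.0 to 213.6 CPM in uninjected late 2C libraries and at 0.469 to 16.5 CPM in Duxbl ones, while Rrm2b stood at 75.3 to 138.7 CPM and 244 to 453 CPM.

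The mCherry injection by itself gave no called member at any stage. Among all genes tested 0% were called by limma at each of the 3 stages, and in their order 562, 779 and 403 genes had an unadjusted p under 0.05. Among the members only Sesn1 at late 1C had one, with a difference of 0.71 between mCherry and uninjected embryos (p 0.0249 unadjusted, adjusted p 1). No member was called with voom weights either.

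At late 1C and early 2C no member passed the test between Duxbl and mCherry embryos. At late 1C 0 of 10 tested members were called by limma, where 0.0193% of all genes tested were called. At early 2C it was 0 of 9, where 0.42% were called, and Bbc3 was too low to be tested. No member had an unadjusted p under 0.05 at either stage, and none was called with voom weights.

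The nearest at late 1C was Mdm2, at 265, 270, 266 and 261 CPM in the 4 Duxbl libraries and 201.1 to 255.2 CPM (median 222) in the mCherry libraries. The groups did not overlap, but the difference of 0.24 (SE 0.11) had an unadjusted limma p of 0.0504 and an adjusted p of 0.844. Sesn2 had the largest difference there, -0.62 (SE 0.35, adjusted p 0.844), with levels of 0.419 to 3.64 CPM in Duxbl and 1.80 to 3.95 CPM in mCherry libraries. At early 2C the differences of the 9 tested members ran from -0.23 for Btg2 to 0.39 for Ccng1. Bbc3 was then at 0.0833 to 0.221 CPM in Duxbl libraries and at 0 to 0.134 CPM in mCherry libraries, with 3 of the 6 listed at 0.

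At late 2C 5 of the 10 members were called between Duxbl and mCherry embryos, 4 lower and 1 higher in Duxbl. Of all genes tested 55.7% were called, 30.1% lower and 25.6% higher, so a count of 5 of 10 is close to the share over all genes. The median difference was -0.79 over the members and -0.10 over all genes tested. The groups did not overlap for Sesn2, Btg2, Bax and Rrm2b, and the share of all genes tested without overlap is not given.

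Sesn2 was at 5.75, 1.05, 16.5, 0.469 and 4.63 CPM in the 5 Duxbl libraries and at 88.8 to 209.7 CPM (median 127) in the mCherry libraries. All Duxbl libraries were far below the lowest mCherry library. The difference was -4.80 (SE 0.47, limma adjusted p 1.8e-08), a 27.8-fold lower level on the log2(CPM + 1) scale.

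Btg2 was at 27.1, 10.6, 20.6, 11.3 and 2.18 CPM in Duxbl libraries and at 34.6 to 197 CPM (median 107) in mCherry libraries. The highest Duxbl library was just under the lowest mCherry library, and both groups were spread over several-fold. The difference was -2.97 (SE 0.50, limma adjusted p 2.91e-05).

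Bax encodes the effector that opens the outer mitochondrial membrane in apoptosis. It was at 2.42, 4.78, 1.25, 1.27 and 3.30 CPM in Duxbl libraries and at 12.4 to 38.8 CPM (median 24.1) in mCherry libraries. The Duxbl libraries were all low, and the difference was -2.82 (SE 0.39, limma adjusted p 2.53e-06).

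Pmaip1 was at 0.143, 1.34, 1.25, 9.61 and 2.05 CPM in Duxbl libraries and at 7.84 to 40.4 CPM (median 17.5) in mCherry libraries. One Duxbl library, number 6, was above the lowest mCherry library, and the other Duxbl libraries were below all of them. The difference was -2.72 (SE 0.49, limma adjusted p 6.51e-05), and it was -3.50 with a pseudocount of 0.1 CPM.

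Rrm2b moved the other way. It was at 244, 324, 453, 278 and 387 CPM in Duxbl libraries and at 87.2 to 128.1 CPM (median 108.7) in mCherry libraries. Every Duxbl library was above every mCherry library, and the difference was 1.63 (SE 0.22, limma adjusted p 1.67e-06), a 3.10-fold higher level.

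The other 5 members were not called at late 2C, and a missed threshold does not show that they were equal. Bbc3 was at 4.70, 0.382, 1.30, 0.0469 and 0.267 CPM in Duxbl and at 1.14 to 4.11 CPM (median 2.64) in mCherry libraries, a difference of -0.90 (95% interval -1.86 to 0.06, limma adjusted p 0.102). Without the Duxbl library 1, which held the highest value of its group, Bbc3 passed at -1.30, and it passed at -0.90 when all 9 groups shared one fit. Sesn1 was at 15.2, 7.51, 14.4, 13.1 and 16.0 CPM against 10.9 to 39.1 CPM (median 20.7), a difference of -0.67 (95% interval -1.37 to 0.04, adjusted p 0.0993). It passed at -0.84 without mCherry library 5 and at -1.10 with uninjected embryos as the control.

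Mdm2 (138 ± 37.5 against 161 ± 51.0 CPM, SD, n = 5 and 6) differed by -0.21 with a 95% interval of -0.73 to 0.31. Ccng1 (57.2 ± 11.3 against 67.4 ± 44.4 CPM) differed by -0.01, with an interval of -0.89 to 0.88. Trp53inp1, whose product promotes p53 activity and takes part in autophagy, differed by 0.25 (223 ± 53.4 against 195 ± 73.1 CPM, interval -0.31 to 0.81). Levels of these 3 genes overlapped widely between the groups.

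**Figure D2:**
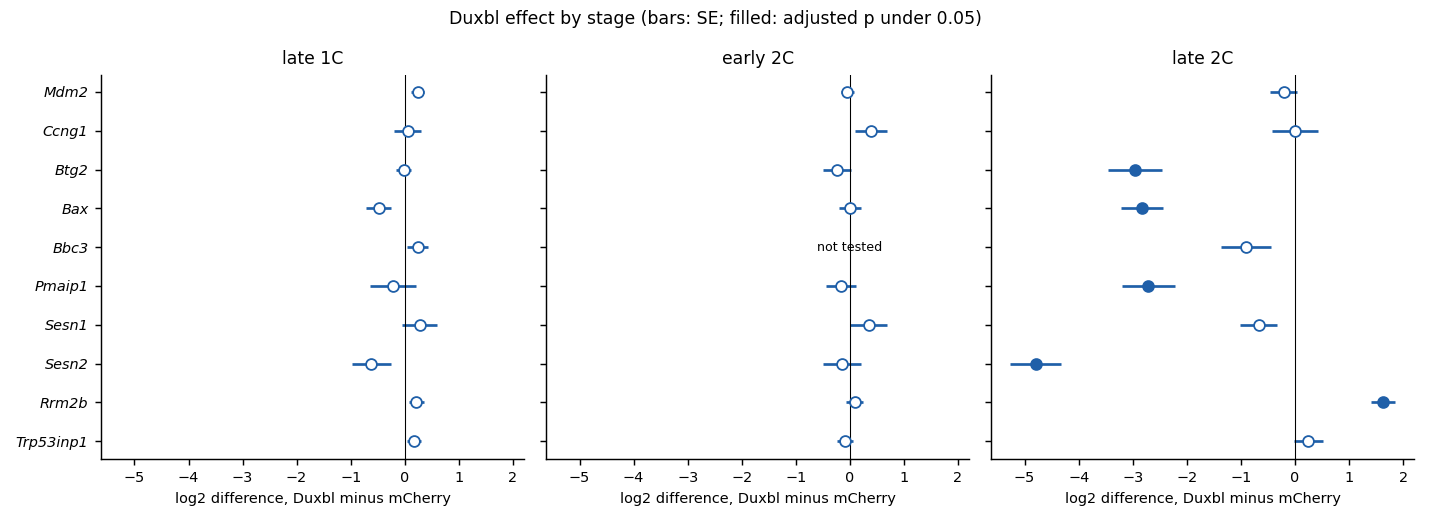
Log2 difference of each member between Duxbl and mCherry embryos at the 3 stages, from limma; points are the estimates, bars are 1 SE and filled points had an adjusted p under 0.05. The filled points are at late 2C, where Sesn2 was at -4.80 and Rrm2b at 1.63.

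Whether the Duxbl difference itself changed from early to late 2C was tested as an interaction in a fit of all 9 groups. It was called for 6 of the 10 members, beside 44.8% of all genes tested, 21.1% up and 23.7% down. The difference moved down for Sesn2 (-4.65, SE 0.59, limma adjusted p 5.01e-09), Bax (-2.83, adjusted p 5.13e-08), Btg2 (-2.73, adjusted p 1.86e-05), Pmaip1 (-2.55, adjusted p 0.00037) and Bbc3 (-1.06, adjusted p 0.028), and up for Rrm2b (1.54, adjusted p 3.59e-07). Bbc3 was too low to be tested at early 2C and entered this fit through groups where it is higher, so its term carries little information on the early 2C difference. The Bbc3 value was lost without mCherry late 2C library 1 (-0.95) and without Duxbl late 2C library 3 (-0.95), 6 (-0.85) or 7 (-0.92). Sesn1 (-1.02, adjusted p 0.0748) was gained without mCherry library 5 of either stage (-1.18 and -1.19), and Ccng1, Mdm2 and Trp53inp1 were not called.

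The course from early to late 2C in Duxbl embryos is set beside that of uninjected embryos. It shares the Duxbl late 2C libraries with the comparison above, so it is no independent evidence. The difference between the Duxbl and the uninjected course was not tested, since the interaction above took mCherry embryos as the control. In Duxbl embryos 2 members rose, 3 fell and 5 were not called, beside 38.8% of all genes tested, 20.1% higher and 18.7% lower.

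Ccng1 and Sesn1 rose in both. Ccng1 rose by 1.69 in Duxbl embryos (SE 0.37, limma adjusted p 0.000204), from 11.97 to 25.2 CPM to 45.5 to 72.3 CPM. Sesn1 rose by 1.49 (SE 0.35, adjusted p 0.000495), from 2.54 to 9.73 CPM to 7.51 to 16.0 CPM, where the groups overlapped.

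Bax fell by 2.63 in Duxbl embryos (SE 0.29, limma adjusted p 2.22e-10), from 20.2, 25.04, 13.6, 22.8 and 19.7 CPM at early 2C, while it was not called in uninjected embryos. Btg2 fell by 1.67 (SE 0.38, adjusted p 0.000349) from 21.3 to 63.2 CPM to 2.18 to 27.1 CPM, where the groups overlapped and uninjected embryos had a rise. Mdm2 fell by 0.69 (SE 0.18, adjusted p 0.00149) from 193.6 to 250.2 CPM to 82.2 to 181.7 CPM, without overlap.

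The members without a called change in Duxbl embryos were Sesn2, Pmaip1, Bbc3, Rrm2b and Trp53inp1. Sesn2 was at 2.25 to 5.32 CPM at early 2C and differed by -0.05 at late 2C (95% interval -0.91 to 0.82, limma adjusted p 0.961). Pmaip1 was at 0.595 to 1.84 CPM and differed by 0.51 (interval -0.37 to 1.39). Rrm2b was at 257 to 319 CPM and differed by 0.23 (interval -0.12 to 0.58), and it passed at 0.50 with median-of-ratios scaling. Bbc3 (0.69, adjusted p 0.0612) passed without late 2C library 3 (0.80), 6 (0.90) or 7 (0.83), and Trp53inp1 differed by -0.02.

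**Figure D3:**
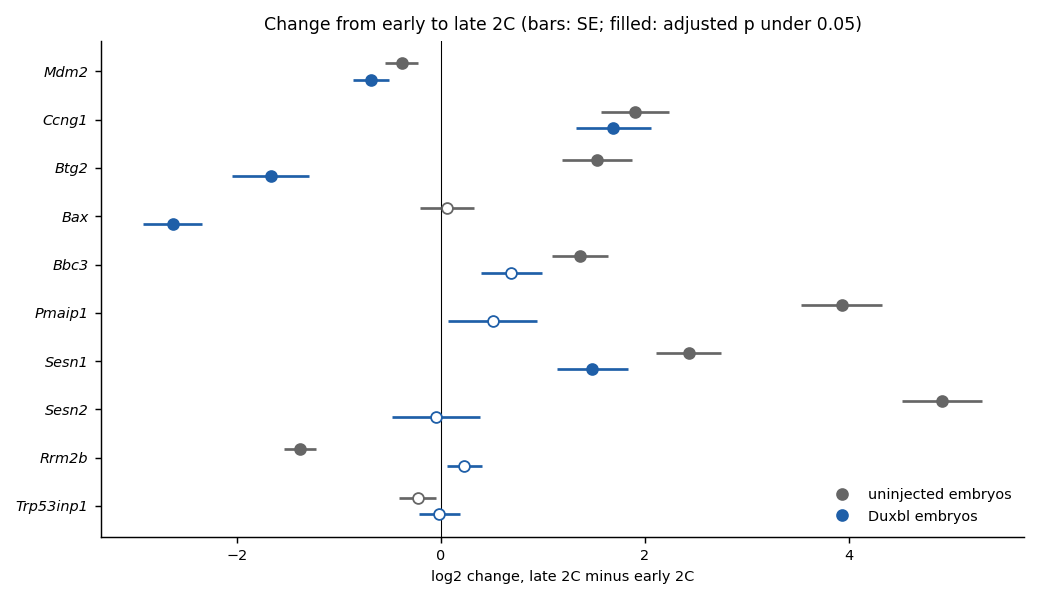
Log2 change of each member from early to late 2C in uninjected (grey) and Duxbl (blue) embryos, from limma; bars are 1 SE and filled points had an adjusted p under 0.05. Sesn2 stood at 4.92 in uninjected and -0.05 in Duxbl embryos, and Btg2 at 1.53 and -1.67.

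Trp53, the gene of p53, was lower in Duxbl embryos at late 2C. It was at 20.2, 19.3, 9.91, 20.5 and 11.8 CPM in Duxbl libraries and at 27.1 to 64.5 CPM (median 54.6) in mCherry libraries. The groups did not overlap, and the difference was -1.58 (SE 0.29, limma adjusted p 8.54e-05). Trp53 RNA also fell in uninjected embryos from early to late 2C, by 1.18 (adjusted p 5.09e-07), and by 2.58 in Duxbl embryos (adjusted p 2.92e-14). At late 1C and early 2C its Duxbl difference was -0.19 and -0.26, and neither was called.

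Cdkn1a, which encodes the cyclin-dependent kinase inhibitor p21 and is a classical p53 target, was at 12.3, 1.72, 5.48, 11.6 and 12.1 CPM in Duxbl late 2C libraries and at 106.7 to 160.6 CPM (median 119.5) in mCherry libraries. All Duxbl libraries were below all mCherry libraries, and the difference was -3.92 (SE 0.35, limma adjusted p 5.81e-09). In uninjected embryos Cdkn1a rose by 1.13 from late 1C to early 2C (adjusted p 0.013) and by 2.90 from early to late 2C (adjusted p 8.42e-13), while in Duxbl embryos it fell by 0.84 over the later step (adjusted p 0.0279).

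Among 26 tested genes of a list of other p53 targets, 14 were lower, 3 were higher and 9 were not called in Duxbl embryos at late 2C, with a median of -1.16, where 30.1% of all genes tested were lower and 25.6% higher. The largest falls were in Sertad1, a regulator of cyclin-dependent kinase 4 (3.23 against 287 CPM, -6.31), Tigar, which encodes a phosphatase of sugar metabolism (15.3 against 378 CPM, -4.87), and the polo-like kinase gene Plk3 (2.27 against 46.1 CPM, -4.39). The rises were in Perp, which encodes a desmosomal membrane protein (1.62), Polk, a translesion DNA polymerase (1.38), and Ddb2, a sensor of ultraviolet damage (0.83). In uninjected embryos from early to late 2C, 12 of 28 tested genes of this list rose and 5 fell, where 30.8% of all genes tested rose and 26.3% fell. Sertad1 (5.97), Btg1 (4.80) and Gadd45b (4.14) rose most, and Psrc1 (-3.45), Polk (-2.92) and Ddb2 (-2.12) fell most.

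A list of 19 genes held Trp53 itself, its paralogs Trp63 and Trp73 and regulators of p53. In Duxbl embryos at late 2C, 10 of them were higher, 8 were lower and 1 was not called, with a median of 1.26, where 55.7% of all genes tested were called. Cdkn2a, which encodes the MDM2 inhibitor ARF as well as a cyclin-dependent kinase inhibitor, was higher (29.2 against 0.795 CPM, 4.06). The checkpoint kinase gene Chek1 (2.05) and the p53 kinase gene Hipk2 (1.88) were also higher. The checkpoint kinase gene Chek2 (-2.10), Prkdc, which encodes the catalytic subunit of a DNA damage kinase (-2.04), and Ppm1d, a phosphatase that dampens p53 signalling and is itself a p53 target (-1.59), were lower. Chek1 fell by 2.84 and Chek2 rose by 3.75 in uninjected embryos over the same step, in which 4 genes of the list rose and 10 fell, where 57.1% of all genes tested were called.

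Bax, Bbc3 and Pmaip1 act within the BCL2 family, of which 12 other members were tested at late 2C. In Duxbl embryos 5 were higher, 6 were lower and 1 was not called, with a median of -0.64, where 55.7% of all genes tested were called. The anti-apoptotic genes Bcl2 (15.1 against 0.912 CPM, 3.26), Bcl2l1 (2.05) and Bcl2l10 (1.87) had the largest rises. The pro-apoptotic genes Bid (3.99 against 64.9 CPM, -4.21), Bok (-3.45) and Bad (-3.00) had the largest falls. Named after their values were seen, the rest of the called genes were the pro-apoptotic genes Hrk (1.79) and Bik (1.32), which were higher, the anti-apoptotic gene Mcl1 (47.6 against 198.5 CPM, -1.91), which was lower, and the pro-apoptotic genes Bmf (-2.13) and Bcl2l11 (-1.24), also lower. Both directions thus held genes of both kinds. In uninjected embryos from early to late 2C, 8 rose and 3 fell, beside 57.1% called over all genes tested, with Bid (4.41), Mcl1 (3.43) and Bad (3.05) at the top and Bcl2l10 (-3.40), Bcl2l1 (-2.49) and Bik (-2.36) at the bottom.

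The partners of the other members were mixed. Sestrins act through the GATOR complexes and AMP-activated kinase, and of 13 such genes limma called 4 lower at late 2C in Duxbl embryos and 0 higher, the same 4 that had an unadjusted p under 0.05, where 30.1% of all genes tested were lower. Castor1, an arginine sensor (-2.34), and the GATOR subunit genes Wdr59 (-1.66) and Depdc5 (-1.48) were the lowest. Of 10 genes of the BTG and TOB family and the deadenylase that BTG2 binds, 4 were higher and 4 lower, where 55.7% of all genes tested were called. The maternal decay gene Btg4 (3588 against 925 CPM, 1.99) and the deadenylase genes Cnot7 (1.73) and Cnot6l (1.71) were higher, and Tob2 (-1.63), Cnot1 (-1.52) and Tob1 (-1.17) were lower.

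Rrm2b, unlike the other subunit genes of ribonucleotide reductase, was higher in Duxbl embryos. Rrm1, of the large subunit, was at 10.6 against 58.9 CPM (-2.36, limma adjusted p 1.94e-05), and Rrm2, of the S-phase small subunit, was at 102.4 against 194.6 CPM (-0.99, adjusted p 0.0315). Of the paralogs of Ccng1 and Trp53inp1, Ccng2 was lower (-0.61, adjusted p 0.048) and Trp53inp2 was higher (1.85, adjusted p 9.61e-07). At late 1C and early 2C no gene of these 7 lists was called between Duxbl and mCherry embryos by limma. At an unadjusted p under 0.05 the highest number in a list was 4, of 24 other p53 targets at late 1C. Over all genes tested there, 1210 of 20777 had such a p.

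**Figure D4:**
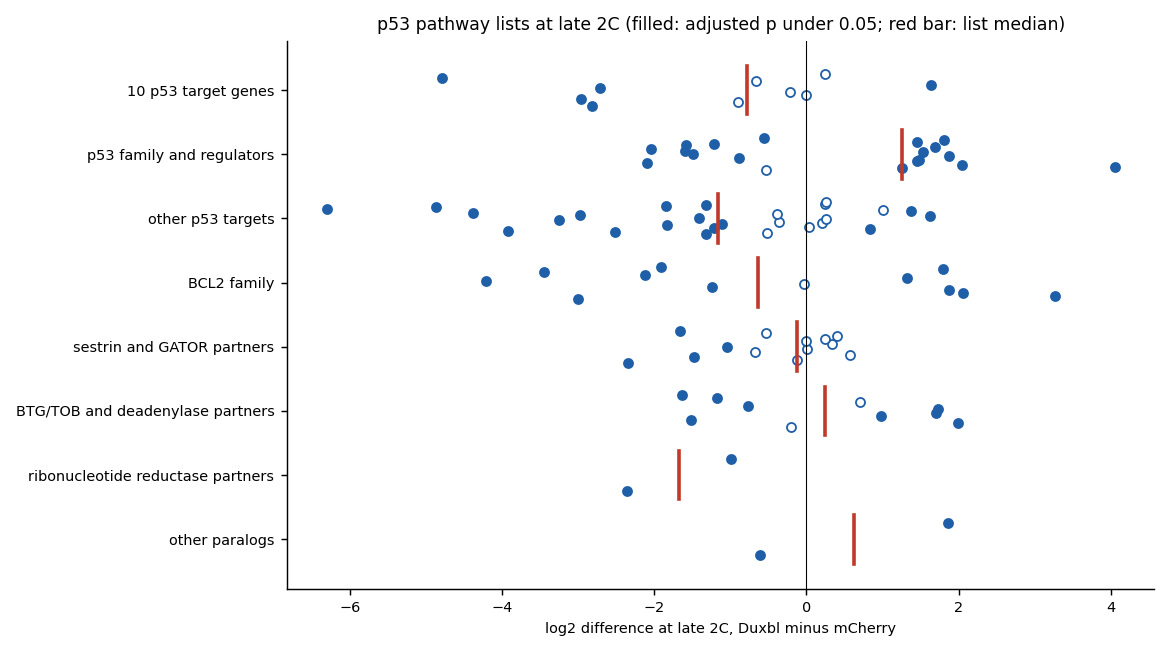
Log2 difference between Duxbl and mCherry embryos at late 2C for the members and for the genes of the related lists, from limma; each point is a gene, filled where the adjusted p was under 0.05, and red bars are list medians. Other p53 targets lie mostly below 0, with a median of -1.16, and the genes of the p53 family and its regulators lie on both sides, from Chek2 at -2.10 to Cdkn2a at 4.06.

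The 3 genes whose profile over the 9 group means was most like that of Rrm2b, among 28808 genes, were Ube2g1, Nexn and Lrrc8b, with root-mean-square differences of 0.05, 0.07 and 0.07 on the log2 scale. Nexn was at 1496 CPM in Duxbl, 452 CPM in mCherry and 423 CPM in uninjected embryos at late 2C. For Sesn2 they were Gstm1, Smim40 and Mrpl43, with root-mean-square differences of 0.17, 0.20 and 0.20. Gstm1 was at 1.54 CPM in Duxbl, 93.2 CPM in mCherry and 75.5 CPM in uninjected embryos at late 2C.

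Markers of other cells moved between the groups at late 2C, and their source and their part in the results were not tested. Some also changed with stage in uninjected embryos. Mean Hba-a2 went from 0.834 CPM at early 2C to 21.2 CPM at late 2C, and mean Cyp19a1 from 88.7 CPM at late 1C to 3.46 CPM at late 2C. Cyp19a1 is a cumulus and granulosa marker, and mean Tnfaip6, of the same list, went up from 0.135 to 4.93 CPM between those stages. From early to late 2C, 2 of 8 tested markers of that list rose and 4 fell in these embryos. Over all genes tested 30.8% rose and 26.3% fell. Of the blood markers, 4 of 6 were in the table, and their summed level was 0 to 13.02 CPM in Duxbl, 26.0 to 44.1 CPM in mCherry and 16.9 to 60.5 CPM in uninjected libraries. The globin genes Hba-a1 and Hba-a2 made nearly all of it, and Ptprc was at 0 in 4 of 5 Duxbl and 5 of 6 mCherry libraries. Of the cumulus and granulosa cell markers 9 of 10 were in the table, summing to 14.0 to 51.8 CPM in Duxbl, 9.77 to 19.2 CPM in mCherry and 6.56 to 18.04 CPM in uninjected libraries. Of 4 tested, 2 were higher and 1 lower in Duxbl than in mCherry embryos, where 25.6% of all genes tested were higher and 30.1% lower. Mean Cyp19a1 was 17.7 against 4.01 CPM, and mean Tnfaip6 was 1.89 against 6.34 CPM. Inhba and Col1a2 were at 0 in all Duxbl libraries, and in 5 and 4 of the 6 mCherry libraries.

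The 7 oviduct markers summed to 80.6 to 187 CPM in Duxbl and 63.1 to 166 CPM in mCherry libraries, with Ovgp1 (51.4 against 6.01 CPM) and Wt1 (14.5 against 1.95 CPM) higher and Muc1 (1.41 against 8.30 CPM) lower among 5 tested. Epcam had the highest mean of these markers in both groups (71.4 against 98.9 CPM). The 6 sperm markers summed to 3.39 to 31.4 CPM and 3.20 to 9.96 CPM, with 1 higher and 3 lower among 4 tested. The 10 oocyte and embryo markers were all in the table, summing to 2440 to 3131 CPM in Duxbl, 1014 to 2122 CPM in mCherry and 990.2 to 1609 CPM in uninjected libraries. Of them 5 were higher and 3 lower in Duxbl than in mCherry embryos, where 25.6% of all genes tested were higher and 30.1% lower. The oocyte gene Bmp15 (1638 against 315 CPM), on average the largest part of the sum in Duxbl libraries, was higher. Another oocyte gene, Zp3, had a lower mean in Duxbl libraries (52.1 against 94.6 CPM). The 2-cell-stage genes Zscan4d (1.31 against 199 CPM), Zscan4c (1.82 against 91.7 CPM) and Zfp352 (25.3 against 329 CPM) were lower.

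In the mm39 coordinates of the table Rrm2b lies on chromosome 15, 37924196 to 37961562, minus strand, and overlaps Gm3362, a processed pseudogene on its strand that reached a group mean of 12.9 CPM, and Gm49085, a lncRNA on the other strand that reached 6.14 CPM. Sesn2 lies on chromosome 4, 132219343 to 132237812, minus strand, and overlaps the lncRNA Gm12981 on its strand, which reached 0.497 CPM. Sesn1 lies on chromosome 10, 41685931 to 41784420, plus strand, and overlaps 9930024M15Rik on its strand, which reached 3.13 CPM. The library kit does not mark strand, so reads in shared stretches cannot be assigned to one of the genes with certainty. Btg2 lies on chromosome 1, 134002908 to 134006858, minus strand, Bax on chromosome 7, 45111121 to 45116322, minus strand, and Mdm2 on chromosome 10, 117524780 to 117546663, minus strand, and these 3 overlap no other gene of the table.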

How the data were processed

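The deposited table gives a whole number per gene and library, for 50 libraries, on mm39. The labels' protocols name SMART-Seq v4 for cDNA, Nextera XT for libraries and paired reads from a NovaSeq. The tools named per the submitters' processing notes, with no roles, are featureCounts 2.0.4, STAR 2.7.10a, DESeq2, DESeq, Trimmomatic 0.39 and Picard 3.0.0. They were handled as a score, not as raw counts: in 19 libraries some whole numbers from 1 to 20 never occur, as in counts that the authors scaled and rounded before they deposited them. Depth in reads is therefore not known, and no counting interval or detection limit is given. No gene had a highest value under 6, so genes with lower values are not analysed here.

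A count test had been planned if the values were counts. Values were instead divided by library totals times trimmed-mean-of-M factors over all 50 libraries (30% of ratios and 5% of abundances trimmed), and 1 CPM was added before log2. limma 3.58.1 in R 4.3.3 fitted the group means with a trended, robust variance prior, two-sided. Within-stage comparisons used the 3 groups of the stage, and stage changes and the interaction all 9 groups. A gene was tested if the number of libraries with a value of 10 or more reached the size of the fit's smallest group. The fit was tested on simulated data. Alternatives were the pseudocount, no filter, other scalings, voom weights, the replicate block, other sets of libraries and each library left out.

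Named genes were the members, Trp53, Cdkn1a, up to 3 called genes with the largest rise and fall in each related list, and the 3 genes most like the members with the largest rise and fall. The members and lists were chosen with earlier results of these data known. Replicate numbers were checked by the correlation of same-numbered libraries of the groups compared, about their group means. For Duxbl and mCherry at late 1C it was 0.20 to 0.34, over 0.1 in each of 4 pairs, so the numbers were taken to pair the samples there. The p-values given are from fits without this pairing. With the replicate block, 0 members were called between these groups at late 1C. In each other comparison at least 1 pair was under 0.1.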

Additional observations from a re-analysis of the deposited data

Results flagged for a closer look

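In 3 of 90 combinations of member and group, 1 library stood apart from the others of its group by Dixon's test at the 95% level, and chance gives about 1 in 20. Btg2 was at 19.8 CPM in uninjected early 2C library 5, where the others ran from 36.8 to 51.2 CPM. Sesn1 was at 7.51 CPM in Duxbl late 2C library 3, where the others ran from 13.1 to 16.0 CPM. Trp53inp1 was at 317 CPM in Duxbl late 1C library 5, where the others ran from 245 to 251 CPM.

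The difference between Duxbl and mCherry embryos itself changed from early to late 2C, by limma's interaction term, for 6 of 10 members, where 44.8% of all genes tested were called: Sesn2 by -4.65, Bax by -2.83, Btg2 by -2.73, Pmaip1 by -2.55, Bbc3 by -1.06 and Rrm2b by 1.54. All but Bbc3 kept their call without any one library. Bbc3 was too low to be tested at early 2C, so its value says little about the early 2C difference.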

How the results depend on the processing

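The number of members called stayed within 1.5 times of the reported number under all 228 combinations of comparison and alternative. Of the members' single values, 2194 kept their side of the threshold, 15 were gained, 17 were lost and 0 called values reversed. The 2194 include values that were not called and changed sign. Leaving out 1 library gave 5 to 6 called members for Duxbl against mCherry at late 2C, 7 to 8 for uninjected early to late 2C, 5 to 6 for Duxbl early to late 2C and 5 to 7 for the interaction. The lowest single values reached were -5.28 and -5.13 for Sesn2 in the first and last of these, -1.48 for Rrm2b in uninjected and -2.83 for Bax in Duxbl embryos. With the replicate block the members called at late 2C were again 5, and no member's call changed in any comparison. The block moved the calls over all genes at late 2C from 12841 to 13095, and there 8 of 10 libraries correlated best with the library of their own number.

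For Duxbl against mCherry at late 2C, Sesn1 was also gained with library totals (-0.90) and without the libraries numbered 4 and 5 (-0.87), and with uninjected controls (-1.10). Across the other settings Sesn2 ran from -5.41 to -4.67 and Pmaip1 from -3.65 to -2.72, and Ccng1 changed sign. In uninjected embryos from early to late 2C, Mdm2 was lost with median-of-ratios scaling (-0.095), library totals (-0.021), without libraries 4 and 5 (-0.23), when only the compared groups were fitted (-0.39) and with factors from the genes tested (-0.34). In Duxbl embryos over this step, median-of-ratios scaling gained Rrm2b (0.50) and Bbc3 (0.78). For the interaction, Sesn1 was gained with library totals (-1.29) and without libraries 4 and 5 (-1.06), which lost Bbc3 (-1.09). Factors from the genes tested and factors from 1 stage alone were chosen after seeing the data. Library totals moved the median of all genes for Duxbl against mCherry at late 2C from -0.10 to -0.26, and for uninjected early to late 2C from 0.03 to 0.15.

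Over all genes, the 89 calls of Duxbl against mCherry at early 2C became 4 with voom weights, 41 without libraries 4 and 5, 56 and 59 without Duxbl early 2C library 5 or 6, 137 with a pseudocount of 0.1 CPM, 134 in a fit of the compared groups and 167 with uninjected controls. The 4 at late 1C became 1 with voom weights, without libraries 4 and 5 and in the fit of all 9 groups. The 833 from late 1C to early 2C became 400 without libraries 4 and 5, 524 without early 2C library 4 and 1585 when those groups were fitted alone. With 1 fit for all 9 groups, mCherry and uninjected embryos differed in 1 gene at the earlier and 45 genes at the later 2-cell stage, none a member.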

Other observations

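In Duxbl embryos from early to late 2C, other genes of the p53 network also moved. Of the p53 family and its regulators 8 rose and 7 fell among 19 tested, with Cdkn2a (3.79), the damage kinase gene Atm (2.03) and Chek2 (1.59) rising most, and Trp53 (-2.58), the acetyltransferase gene Kat5 (-1.89) and Ppm1d (-1.68) falling most. Of the other p53 targets 5 rose and 10 fell among 28 tested. Dram1, an autophagy gene (2.17), the antiproliferative gene Btg1 (1.99) and Gadd45a, a growth arrest and DNA damage gene (1.60), rose most. Xpc, a DNA damage recognition gene (-1.84), Psrc1 (-1.82) and Plk3 (-1.79) fell most. Of the BCL2 family Bcl2 (2.54), the BH3-only gene Hrk (2.36) and Mcl1 (1.62) rose, and Bcl2l10 (-1.40) and Bik (-1.36) fell, among 12 tested. All were called by limma at an adjusted p under 0.05, where 38.8% of all genes tested were called. These changes share the Duxbl late 2C libraries with the comparison of Duxbl and mCherry embryos.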
